A study of Mus musculus with 34 samples.

Results

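The genes described here are the nuclear genes named as subunits of the 5 complexes of oxidative phosphorylation, followed in the mouse colon through a model of recurrent colitis. They were taken by symbol from the annotation of the array's probes: every symbol that starts with Nduf followed by a, b, c, s or v (complex I), Sdha to Sdhd (complex II), Uqcr (complex III), Cox4 to Cox8 (complex IV) or Atp5 (complex V). No measured value enters this rule, but it was chosen with earlier results of these data known. This gave 107 of the 25697 probes on the array and 85 genes of 16593 with a symbol, namely 40 for complex I, 3 for complex II, 8 for complex III, 18 for complex IV and 16 for complex V. The pattern also takes in 5 assembly factors of complex I (Ndufaf1, Ndufaf3, Ndufaf4, Ndufaf5 and Ndufaf7), which help to build the complex but are not part of it, and the annotated pseudogene Ndufs5-ps. Ndufa4 is counted with complex I by its name, although its protein is now placed in complex IV, and Cox7a2l is a factor of the supercomplex of complexes III and IV.

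Complexes I and II pass electrons from NADH and succinate to ubiquinone, complex III passes them on to cytochrome c, and complex IV hands them to oxygen. Complexes I, III and IV pump protons out of the mitochondrial matrix as they do so, and complex V, the ATP synthase, uses their return flow to make ATP. Most subunits are encoded in the nucleus, and some subunits of complex IV exist as a general form and a form particular to heart and skeletal muscle, brown fat or testis. Absorptive cells of the colon draw much of their energy from oxidation of butyrate in mitochondria.

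RNA of 34 BALB/c mice (females, 8 weeks of age) was measured on one-colour Illumina bead arrays, 1 for each mouse, from the distal part of the colon. There were 4 mice labelled healthy and 5 mice each on days 9, 14, 16, 21, 23 and 28 of the recurrent model. These were sensitised on the skin with TNBS, a hapten that makes proteins immunogenic, 7 days before the first challenge, and then received it in ethanol by rectal instillation, in rising doses, on days 7, 14 and 21. Days 9, 16 and 23 were thus 2 days, and days 14, 21 and 28 were 7 days, after an instillation. The healthy mice are the only controls, so that effects of ethanol, sensitisation and rectal TNBS cannot be told apart, and all 6 comparisons with healthy share the same 4 arrays. The labels give the same age for all groups and no day for the healthy mice. Effects of age and of time therefore cannot be told apart from those of the treatment either. Each array is a separate animal, so the p-values measure the spread between mice. Batches of hybridisation were not given in the sources used here.

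Values are log2 intensities. Arrays of the same group correlated at 0.927 to 0.951, and 48.5% to 52.8% of all probes lay above a background taken as the 95th percentile of 1326 probes for odorant and vomeronasal receptors (log2 4.48 to 4.93). The tissue label held, since all 7 markers of epithelium and all 7 of absorptive colonocytes that were tested lay above background on most healthy arrays. Markers of skeletal muscle were high on 5 arrays (day 9 mice 2, 3 and 5, day 14 mouse 5 and day 21 mouse 5), where the mean of 16 such genes lay 3.07 to 6.35 log2 units above the healthy mean, against -0.44 to 0.54 on all other arrays. Ucp1, the uncoupling protein of brown fat, exceeded log2 6 on 6 arrays, namely day 9 mouse 1, day 16 mouse 3, day 21 mice 1, 3 and 5 and day 23 mouse 5. The arrays said below to have brown fat markers were picked by Ucp1 alone. Of the other brown fat genes tested, Cidea was above background on 19 arrays and Dio2 on 0. Ppargc1a was above it on all 34, was highest in healthy mouse 1 and was lower than healthy on days 9, 16 and 23. Their part in the results was not tested, except that each count was also made without these arrays. In whole tissue, fewer cells of a type and less RNA per cell cannot be told apart.

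Promoters of members are shown first, because the genes of respiratory subunits are known for a few shared binding motifs. RefSeq start sites (GRCm38.p6) were matched for 70 of the 85 genes, with 250 bases before and 50 bases after each start. The letters searched on both strands were GCGCANGCG for NRF1, CCGGAAGT for GABPA, TNAAGGTCA for the estrogen-related receptors and AAGATGGCG for YY1. NRF1 and GABPA (the DNA-binding subunit of NRF2) are transcription factors long linked to respiratory chain genes. The NRF1 letters stood in 19 of 70 members (27.1%, 95% Wilson interval 18.1 to 38.5), against 7.03% of the 27025 genes in the table, 11.9% of genes tested on the arrays and 51 of 340 other genes with a mean log2 intensity of 12 or more. YY1 letters stood in 7 of 70 members (against 1.64% of all genes), GABPA letters in 5 (7.14% against 4.31%) and the letters of the estrogen-related receptors in 3 (4.29% against 1.43%). Among genes tested on the arrays the shares were 2.62% for YY1, 6.93% for GABPA and 1.02% for the estrogen-related receptors. Among the 340 other bright genes they were 3.53%, 9.71% and 2.35%, so that GABPA letters were no more common in members than there. By complex, the NRF1 letters stood in 7 of 14 promoters of complex V, 8 of 36 of complex I, 2 of 5 of complex III, 1 of 2 of complex II and 1 of 13 of complex IV. A match is a description of letters and not a binding site. In the 250 bases before the start alone the share of members was 17.1% for NRF1 and 1.43% for YY1. In the 340 other bright genes it was 12.1% and 2.65%.

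The promoters below belong to genes on which the later results turn: Ndufa5 and Uqcrc1, which were lower on day 23, the widely expressed isoforms Cox6a1 and Cox8a, and Cox8b, the isoform of heart, skeletal muscle and brown fat. Capitals mark the NRF1 letters in Ndufa5, Uqcrc1 and Cox6a1 and the GABPA letters in Cox8a, and Cox8b held none of the 4 motifs in this window. Ndufaf7, Ndufb11, Cox7c and Atp5pb, which were also lower on day 23, held none of them either. Ndufaf4, which was higher on day 28, held the NRF1 letters. Whether the letters go with a change was not tested. The stretches are chr6:24527477-24527776 (minus strand), the first of 2 starts listed for Ndufa5, chr9:108936398-108936697 (plus strand), chr5:115348909-115349208 (minus strand), chr19:7217567-7217866 (minus strand) and chr7:140900397-140900696 (minus strand).
Ndufa5: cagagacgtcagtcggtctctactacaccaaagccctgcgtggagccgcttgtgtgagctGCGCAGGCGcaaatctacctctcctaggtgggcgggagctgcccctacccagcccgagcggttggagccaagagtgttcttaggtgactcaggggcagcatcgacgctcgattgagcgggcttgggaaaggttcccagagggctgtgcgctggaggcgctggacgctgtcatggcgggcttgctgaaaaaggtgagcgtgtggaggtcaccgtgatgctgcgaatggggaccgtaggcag
Uqcrc1: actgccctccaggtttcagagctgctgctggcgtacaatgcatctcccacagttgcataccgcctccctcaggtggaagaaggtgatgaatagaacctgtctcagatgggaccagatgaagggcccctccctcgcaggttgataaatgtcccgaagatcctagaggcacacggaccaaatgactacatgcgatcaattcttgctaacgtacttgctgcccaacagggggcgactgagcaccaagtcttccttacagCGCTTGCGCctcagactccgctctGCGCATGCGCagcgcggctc
Cox6a1: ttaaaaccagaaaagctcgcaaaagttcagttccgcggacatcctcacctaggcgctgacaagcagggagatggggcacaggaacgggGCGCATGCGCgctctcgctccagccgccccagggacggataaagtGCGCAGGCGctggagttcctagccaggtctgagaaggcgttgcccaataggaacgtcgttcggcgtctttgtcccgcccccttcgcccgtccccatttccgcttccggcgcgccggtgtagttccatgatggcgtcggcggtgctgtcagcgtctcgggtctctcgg
Cox8a: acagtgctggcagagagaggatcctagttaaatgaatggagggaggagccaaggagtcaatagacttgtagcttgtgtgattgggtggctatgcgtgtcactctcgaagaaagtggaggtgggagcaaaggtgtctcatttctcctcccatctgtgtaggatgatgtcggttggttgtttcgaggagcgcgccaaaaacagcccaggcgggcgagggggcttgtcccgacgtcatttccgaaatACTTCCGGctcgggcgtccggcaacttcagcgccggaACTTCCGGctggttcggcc
Cox8b: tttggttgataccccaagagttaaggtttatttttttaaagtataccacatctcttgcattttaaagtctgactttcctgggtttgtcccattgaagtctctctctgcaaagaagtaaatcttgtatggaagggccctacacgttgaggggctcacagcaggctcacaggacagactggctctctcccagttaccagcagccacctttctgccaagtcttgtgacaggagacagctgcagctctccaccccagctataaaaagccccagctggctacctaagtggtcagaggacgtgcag
In Ndufa5 the NRF1 letters began 190 bases before the start shown and 26 bases before the second start listed. In Cox6a1 they began 162, 161 and 117 bases before the start, where the first 2 matches are 1 stretch read on either strand. All matches in Uqcrc1 lay after the start, beginning 6, 30 and 31 bases past it. The GABPA letters in Cox8a began 6 bases before the start and 31 bases after it.

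Most members gave strong and steady signals. Of the 85 genes, 81 had a probe above a floor of 5 intensity units (log2 2.322) on at least 4 arrays and could be tested, and 75 of these lay above background on all 34 arrays. Ndufs1, Uqcrq, Cox7b2 and Cox8c could not be tested, their highest values being log2 2.81, 3.23, 4.14 and 2.41. For Ndufs1, a core subunit of complex I that every cell with mitochondria uses, the gene's level cannot be read from such a probe. Nor can it for Uqcrfs1, the Rieske iron-sulphur protein of complex III, which was above background on 5 arrays, and for Atp5k, a small subunit of complex V, on 2 arrays. The standard deviation within groups had a median of 0.146 log2 units over the 81 members against 0.38 over 14010 genes tested, and of 0.124 in the 37 members with a mean of log2 12 or more against 0.148 in 421 other genes of that brightness. The highest value of the table was log2 15.55, and quantile normalisation can compress differences near that end.

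Across the model the members stayed close to their healthy level. In 73 of 81 (90.1%) the change from healthy was under 1.5-fold on each of the 6 days, against 60.8% of all genes tested, and in 73 the 95% interval of the change lay within 2-fold on each day, against 48.4%. The 8 members with a change past 1.5-fold were Ndufaf7, Ndufb11 and 6 genes that were not above background on all arrays (Uqcrfs1, Cox4i2, Cox6a2, Cox6b2, Cox8b and Atp5k). The median over all members was -0.065 on day 9, -0.012 on day 14, -0.044 on day 16, -0.059 on day 21, -0.173 on day 23 and -0.087 on day 28, in log2 units relative to healthy. Over all genes tested the medians lay between -0.019 and 0. Complex I had medians of -0.098, -0.026, -0.067, -0.109, -0.195 and -0.119 in the order of days, and complex IV of -0.007, 0.016, 0.068, -0.04, -0.112 and -0.085. Day 23, which was 2 days after the third and highest dose, stood at the low end, and 53 of 81 members (65.4%) had their lowest value there, against 18.2% of all genes. On all 6 days 31 members (38.3%) lay below healthy, against 20.9% of all genes. These days share the healthy arrays and are not independent. The members had a median level of log2 11.95, against 6.13 over all genes tested. The shares in this paragraph were not taken among genes of like brightness, so the part of signal level in them was not tested.

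**Figure D1:**
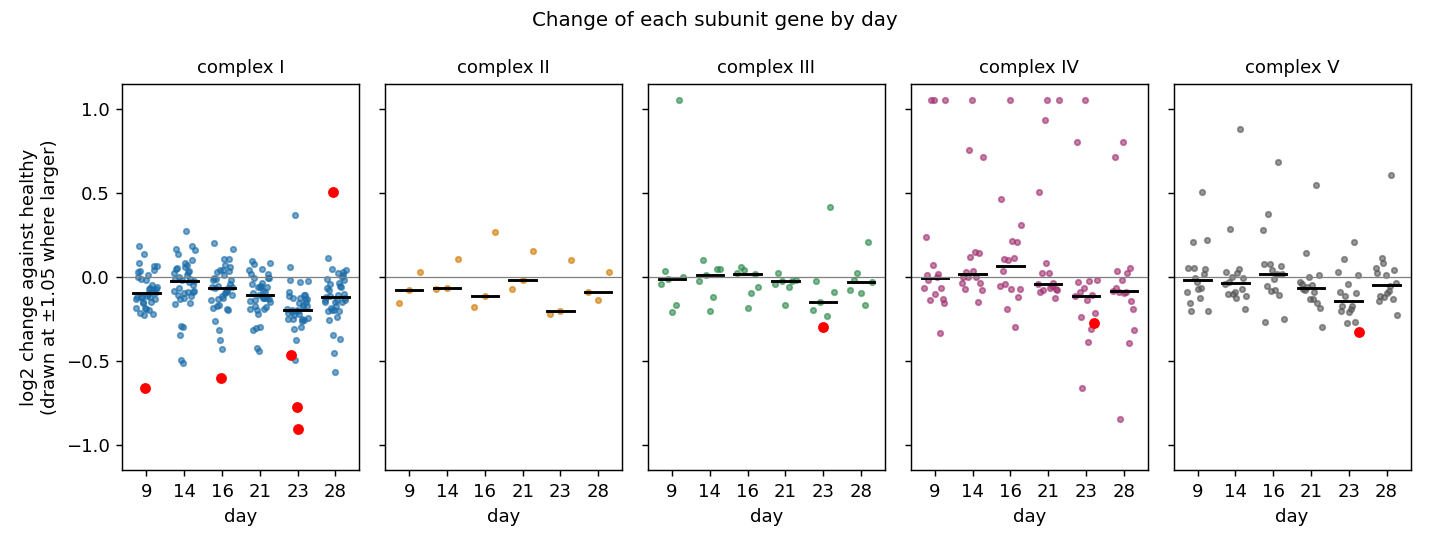
Log2 change against healthy (y axis) of each of the 81 genes on each day (x axis), by complex. Each point is 1 gene, points beyond the axis are drawn at its edge, black bars are medians over the complex, and red points passed the test (adjusted p under 0.05). Most points lie close to 0, and on day 23 the bar of each complex lies below 0, from -0.200 for complex II to -0.112 for complex IV.

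On day 23, 6 of 81 members passed the test (limma, Benjamini-Hochberg adjusted over all 21110 probes), and all 6 were lower than in healthy mice. That is 7.41%, near the 7.64% of all 14010 genes that passed in either direction, while 3.53% of all genes passed as lower. In the direction of change the members were less mixed than the rest, since 71 of 81 (87.7%) lay below healthy against 51.7% of all genes. Among genes with a mean of log2 12 or more, 36 of 37 members lay below healthy (median -0.136), against 247 of 421 other genes (58.7%, median -0.043). By complex, 37 of 39 genes of complex I lay below (median -0.195), 2 of 3 of complex II (-0.200), 6 of 7 of complex III (-0.151), 14 of 16 of complex IV (-0.112) and 12 of 16 of complex V (-0.143). At an unadjusted p under 0.05 there were 25 members, 14 of them in complex I, which is 30.9% of members against 21.1% of all genes. In 9 members (11.1%) all 5 mice lay below all 4 healthy mice, against 4.53% of all genes. In 1 (Ndufaf4, 1.23%) all 5 lay above, against 4.38% of all genes. On day 16 all mice lay below in 6 members (7.41%, against 4.97% of all genes). On days 9, 14, 21 and 28 that share was 2.47%, 1.23%, 0% and 2.47%, against 2.63%, 2.73%, 2.81% and 3.8% of all genes.

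The shift was visible on single arrays. The mean over the 75 members above background was 11.67, 11.79, 11.71 and 11.71 in the healthy mice and 11.49, 11.48, 11.49, 11.54 and 11.70 in mice 1 to 5 of day 23. Mice 1 to 4 thus lay below every healthy mouse, while mouse 5, the array with the highest Ucp1 value of the series (log2 9.03), lay within the healthy range. Without mouse 5 the median over members on day 23 was -0.218, and that of complex IV was -0.241 in place of -0.112. For complex I the healthy arrays lay at 11.06 ± 0.07 (SD, n = 4) and those of day 23 at 10.85 ± 0.08 (n = 5), a difference of -0.21. Complex III stood at 13.17 ± 0.04 and 13.01 ± 0.07 and complex IV at 12.65 ± 0.03 and 12.49 ± 0.12. Complex V stood at 12.26 ± 0.04 and 12.13 ± 0.13, and complex II at 10.96 ± 0.14 and 10.85 ± 0.08. In complexes I, III, IV and V mice 1 to 4 of day 23 lay below all healthy mice and mouse 5 did not, while in complex II the groups overlapped more widely. Over the 75 members, mice below every healthy mouse also occurred on the other days. The ranges were 11.61 to 11.69 on day 9, 11.54 to 11.84 on day 14 and 11.64 to 11.73 on day 16. They were 11.49 to 11.78 on day 21 and 11.55 to 11.67 on day 28. No p is given for these means, and levels of different probes are not compared.

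**Figure D2:**
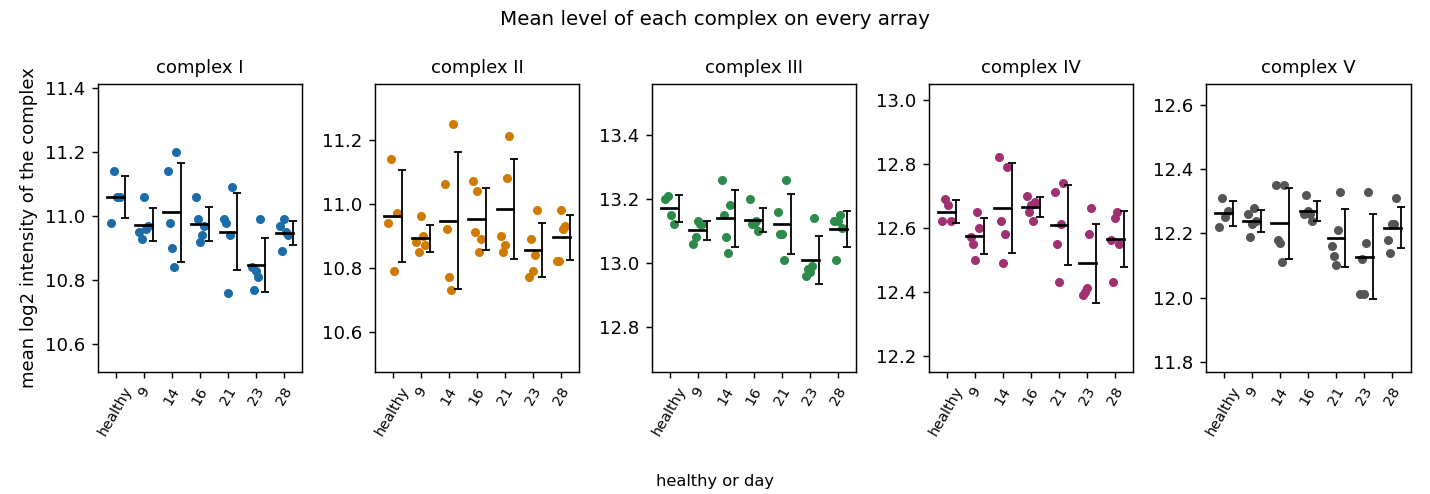
Mean log2 intensity of the genes of each complex above background (y axis; 39, 3, 6, 12 and 15 genes) on each array, by group (x axis; healthy n = 4, each day n = 5). Points are mice, bars are group means and whiskers are SD and the panels have different ranges of equal height. In complex I the day 23 mean is 10.85 and the healthy mean 11.06.

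Markers of other cells moved on the same day. The mean of 7 markers of absorptive colonocytes lay between -0.95 and -0.37 log2 units relative to the healthy mean in the day 23 mice, with 4 of 7 lower by the test (Slc26a2, Aqp8, Car2 and Car4), and healthy mice ranged from -0.16 to 0.21. The mean of 8 neutrophil and monocyte genes lay 0.82 to 2.64 above healthy, with S100a9 and S100a8 called. Smooth muscle markers ranged from -1.32 to 0.07 and all 9 lay below healthy, none called by the test. The mean of 7 general epithelial markers stayed between -0.06 and 0.14, with Krt18 higher and Cldn7 lower. The mean of 5 squamous epithelial genes lay 1.29 to 2.49 above, with Krt13 and Sprr1a called. Skeletal muscle markers were at -0.44 to -0.18 in these mice, and those of brown fat at -0.56 to 1.98. Their part in the shift of the respiratory genes was not tested.

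The genes that passed on day 23 came from 4 complexes. Ndufaf7, an assembly factor of complex I, read 8.38, 7.78, 8.45 and 7.91 in healthy mice and 7.76, 7.11, 7.55, 7.47 and 6.89 on day 23. All 5 day 23 mice lay below all healthy mice, with a log2 change of -0.77 ± 0.17 (SE) and an adjusted p of 0.00474 in limma. Ndufaf7 was also called on day 9 (-0.66, adjusted p = 0.037) and day 16 (-0.60, adjusted p = 0.0411) in limma. On the days 7 days after an instillation it stood at -0.51, -0.44 and -0.46 with limma adjusted p of 0.203 to 0.259. The log2 change was thus below 0 on all 6 days and passed on the 3 days that followed an instillation by 2 days. When 2 and 7 days were compared directly, no member passed. The lowest change at 2 days relative to 7 days in complex I was -0.209. Healthy mouse 2 (7.78) overlapped with mice of each day other than day 23, and the other 3 healthy mice lay above all mice of all days. Of the 2 further probes for Ndufaf7, both at most log2 3.12, neither was tested.

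Ndufa5, an accessory subunit of the peripheral arm of complex I, read 12.03, 12.30, 12.22 and 12.23 in healthy mice and 11.64, 11.79, 11.66, 11.59 and 11.95 on day 23. The groups did not overlap, and the log2 change was -0.47 ± 0.12 (SE; limma adjusted p = 0.0125). A second, dimmer probe of Ndufa5 stood at -0.16 (adjusted p = 0.718), and the mean of both probes did not pass. Ndufb11, a membrane-arm subunit of complex I, had a dimmer probe that read 6.58, 6.37, 6.33 and 6.69 in healthy mice and 6.05, 5.40, 5.72, 5.23 and 5.54 on day 23. Its log2 change was the largest of the 6 at -0.90 ± 0.26 (limma adjusted p = 0.029), again without overlap. A second probe of Ndufb11, above background on 7 arrays, stood at 0.38 (adjusted p = 0.775).

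Outside complex I the called changes were smaller. Uqcrc1, a core protein of complex III, read 12.27, 12.16, 12.08 and 12.10 in healthy mice and 11.72, 11.77, 11.94, 11.85 and 12.02 on day 23. Its log2 change was -0.30 ± 0.09 (limma adjusted p = 0.0336), with all 5 mice below all healthy mice. Cox7c, a small subunit of complex IV, read 13.78, 13.72, 13.96 and 13.72 in healthy mice and 13.61, 13.47, 13.37, 13.50 and 13.65 on day 23. Its log2 change was -0.28 ± 0.08 (limma adjusted p = 0.0381), also without overlap. Atp5pb, subunit b in the stator stalk of complex V, read 11.80, 11.41, 11.75 and 11.59 in healthy mice and 11.26, 11.43, 11.30, 11.12 and 11.42 on day 23, where 3 of 5 mice lay below all healthy mice. Its log2 change was -0.33 ± 0.10 (limma adjusted p = 0.048).

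Subunits of known role that did not pass are given here by that role. Core subunits of complex I, which are conserved from bacteria, stood at -0.26 (Ndufs3), -0.25 (Ndufv2), -0.17 (Ndufs8), -0.15 (Ndufs7) and -0.13 (Ndufv1) on day 23, in log2 units relative to healthy, with adjusted p of 0.0783 to 0.406. In complex III, Uqcrc2, the partner of Uqcrc1, stood at -0.23 (adjusted p = 0.264). In complex V Atp5a1 and Atp5b, the alpha and beta subunits of the catalytic part, stood at 0.03 and -0.09. Of the other parts of the stator stalk Atp5h stood at -0.21, Atp5j at -0.19 and Atp5o at 0.01. In complex IV, Cox6a1 stood at -0.24 (adjusted p = 0.111) and Cox8a at -0.21 (adjusted p = 0.149), while Cox5a and Cox5b stood at -0.03 and -0.09.

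Leaving out 1 array moved the count of day 23 between 2 and 7. It was 2 without healthy mouse 1 or day 23 mouse 4 and 3 without healthy mouse 4 or day 23 mouse 2. Ndufa5 and Ndufaf7 passed in all 34 such fits, Cox7c and Ndufb11 in 29, Uqcrc1 in 28 and Atp5pb in 9. A fit of only the healthy and day 23 arrays called Ndufb11 alone.

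Complex II had no call by its brightest probes, but a second probe of Sdhb, the iron-sulphur subunit of succinate dehydrogenase, had the smallest adjusted p of all member probes on day 23. This probe was singled out after its values were seen. It read 11.10, 11.22, 11.22 and 11.17 in healthy mice and 10.58, 10.73, 10.64, 10.61 and 10.94 on day 23, with no overlap. The log2 change was -0.48 ± 0.09 (limma adjusted p = 0.000954), and it passed in all 34 fits without 1 array. The probe that stands for Sdhb read 11.35, 11.36, 11.19 and 11.11 in healthy mice and 10.85, 11.01, 10.99, 11.17 and 11.14 on day 23, where the groups overlapped. Its log2 change was -0.22 ± 0.11 (adjusted p = 0.266), in the same direction and smaller. The second probe also passed on day 16 (-0.30, adjusted p = 0.0499) and over the days at 2 days after instillation (-0.34, adjusted p = 0.00426), but on day 16 it passed in 7 of the 34 fits without 1 array. Sdhc and Sdhd, the membrane anchors of the enzyme, stood at -0.20 ± 0.11 and 0.10 ± 0.17 on day 23, with adjusted p of 0.293 and 0.823.

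**Figure D3:**
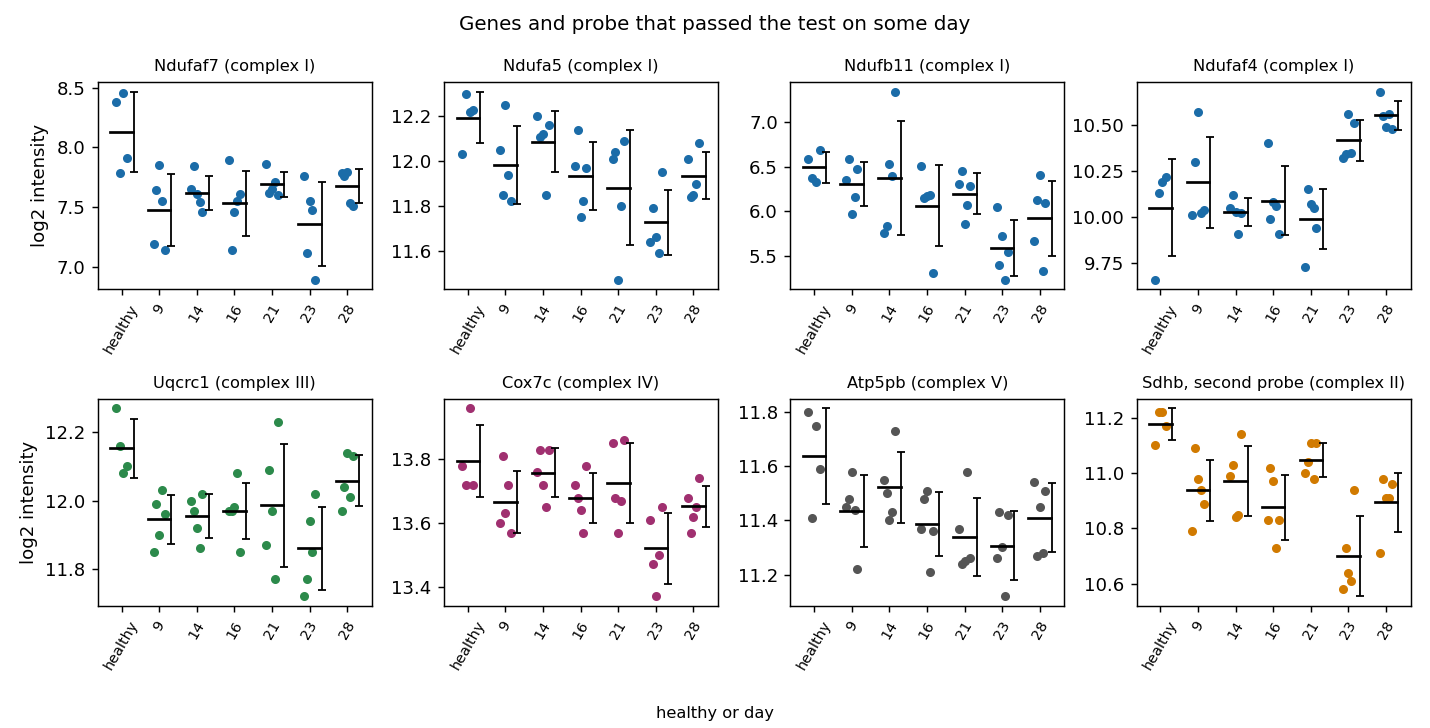
Log2 intensity (y axis) of 7 genes that passed the test on some day, and of the second probe of Sdhb, in each mouse by group (x axis; healthy n = 4, each day n = 5). Points are mice, bars are means and whiskers are SD. The means of Ndufaf7 lie below healthy on every day, and Ndufaf4 is higher on days 23 and 28 than in all 4 healthy mice.

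Outside day 23 few members passed against healthy. On day 9 only Ndufaf7 passed (1 of 81, 1.23%, against 2.22% of all genes) and on day 16 only Ndufaf7 again (1.23% against 4.2%). On days 14 and 21 none passed in limma, against 0.507% and 0.821% of all genes, and 7 and 6 members (8.64% and 7.41%) had an unadjusted p under 0.05, against 11.1% and 12.1% of all genes. On these days limma with a trended, robust prior called none either. On day 9 Ndufaf7 was no longer called without healthy mouse 1, 3 or 4 or day 9 mouse 1 or 5. On day 16 it was no longer called without healthy mouse 1 or 3 or day 16 mouse 2, 3, 4 or 5. Without healthy mouse 3 on both days, and without day 16 mouse 3 on day 16, the dim Cox6b2 was called as higher in its place, and without day 9 mouse 4 Cox6a2 was called beside Ndufaf7.

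On day 28, 7 days after the last instillation, Ndufaf4 was the only member called (1.23% against 1.41% of all genes), and it was higher. Ndufaf4, an assembly factor of complex I, read 9.66, 10.13, 10.19 and 10.22 in healthy mice and 10.68, 10.55, 10.49, 10.56 and 10.48 on day 28, so that all 5 mice lay above all healthy mice. It was the only such member on that day (1.23%, against 3.93% of all genes). Its log2 change was 0.50 ± 0.12 (limma adjusted p = 0.0333). On day 23 it read 10.32 to 10.56, again above all healthy mice, with a log2 change of 0.37 (adjusted p = 0.0673). The low value of healthy mouse 1 enters both changes. The call was lost without healthy mouse 1 or 3 or without any 1 of the 5 mice of day 28. Of the other assembly factors Ndufaf5 (-0.38), Ndufaf1 (-0.31) and Ndufaf3 (-0.49) lay below healthy on day 23 without passing, with adjusted p of 0.0645, 0.0862 and 0.239.

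Over the 3 days at 2 days after an instillation, 4 of 81 members passed against healthy (4.94%, against 8.61% of all genes). Ndufaf7 was lower (log2 change -0.68 ± 0.14, limma adjusted p = 0.0034), as were Ndufa5 (-0.31 ± 0.10, adjusted p = 0.0459) and Uqcrc1 (-0.23 ± 0.07, adjusted p = 0.0475). With each array left out in turn Ndufaf7 passed in all 34 fits, but Ndufa5 in only 11 and Uqcrc1 in only 8, and neither passed without the 5 arrays with skeletal muscle markers. Cox6b2, an isoform of complex IV known from testis, was higher (1.37 ± 0.42, adjusted p = 0.0407), but its probe was above background on only 23 arrays and read 3.62, 2.64, 5.61 and 2.83 in healthy mice against 3.63 to 5.92 in the mice of these days, with overlap. Its second probe stood above background on 6 arrays. Leaving out 1 array gave 1 to 6 calls, with 1 left (Ndufaf7) without healthy mouse 1 or 4, day 9 mouse 1, day 16 mouse 5 or day 23 mouse 4. It gave 2 without healthy mouse 3, day 9 mouse 4 or 5, day 14 mouse 2 or 3, day 16 mouse 1, 2 or 4, or day 28 mouse 1, 2 or 4. Without the 10 arrays with markers of skeletal muscle or brown fat, Ndufaf7 was the only member that passed.

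The extremes of each complex over these 3 days were small changes in most cases. In complex I, Ndufa3 stood at 0.12 at the high end beside Ndufaf4 (0.18). In complex III, Uqcrc2 (-0.17) was next to Uqcrc1 at the low end, while Uqcr11 stood at 0.03 and the dim Uqcrfs1 at 0.57. In complex IV, Cox7a2l (-0.32, adjusted p = 0.0644) and Cox7c (-0.17) were lowest. In complex V, Atp5c1, the gamma subunit of the rotor, stood at -0.21 after Atp5pb (-0.26, adjusted p = 0.0593), with Atp5e at 0.23 and the dim Atp5k at 0.47. Cox8b stood at 0.81 at the high end of complex IV. Apart from the 4 calls none of these passed.

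No member passed over the days at 7 days after an instillation against healthy, where 1.28% of all genes passed, with 10 members (12.3%) at an unadjusted p under 0.05 in limma, against 13.6% of all genes. None passed between 2 and 7 days, against 6.34% of all genes, with 3 members (3.7%, against 19.6% of all genes) at an unadjusted p under 0.05 and a median difference of -0.027 in log2 units. The 95% intervals of that difference had a median half-width of 0.121. Within cycles none passed between days 9 and 14 (0.785% of all genes), 16 and 21 (1.44%) or 23 and 28 (1.66%), with 5, 6 and 2 members at an unadjusted p under 0.05 (6.17%, 7.41% and 2.47%, against 12.4%, 16.1% and 13.2% of all genes). Relative to day 28, 68 of 81 members lay lower on day 23 (median -0.079), against 53.6% of all genes (median -0.021). Relative to day 21, 52 of 81 members lay higher on day 16 (median 0.038), against 6801 of 14010 genes (median -0.002). The difference between these cycles was tested gene by gene, and no member passed in limma (0.0286%, 0.0642% and 0.00714% of all genes), with 4, 0 and 5 members at an unadjusted p under 0.05 (4.94%, 0% and 6.17%, against 9.17%, 8.34% and 11.9% of all genes). With 1 array left out, 1 member passed in 4 of these comparisons: Cox6b2 over the days at 7 days without healthy mouse 3, Atp5o between 2 and 7 days without day 9 mouse 5 or day 21 mouse 5 and between days 9 and 14 without day 9 mouse 5, and in a linear trend Cox6a2 without day 9 mouse 4 and Ndufaf4 without day 9 mouse 3. With all arrays, a linear trend over days 9 to 28 passed for no member (0.178% of all genes, with 8 members, or 9.88%, at an unadjusted p under 0.05 against 8.55% of all genes). With a trended, robust prior limma called none of these either.

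The isoforms of complex IV varied more between arrays than most members. Cox6a2, the form of heart and skeletal muscle, read 4.80, 5.08, 4.37 and 4.74 in healthy mice and 5.38, 9.25, 8.15, 4.45 and 10.30 on day 9. It was high on the 5 arrays with skeletal muscle markers (6.96 to 10.30) and at most 5.89 on the other 29. On day 9 the log2 change was 2.76 with an adjusted p of 0.123 in limma, and mice 1 and 4 stood near healthy. Leaving out 1 array gave 2.06 to 3.52, and without day 9 mouse 4 the change of Cox6a2 passed (3.52, adjusted p = 0.0327). Without the arrays with skeletal muscle markers or Ucp1 over log2 6, the log2 change was -0.30, with mouse 4 the only array of day 9 left. Cox6a1, the form of most tissues, ranged from 13.55 to 13.87 on the 5 arrays and from 13.58 to 14.05 on the 29 others and thus overlapped.

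Cox8b, the form of heart, skeletal muscle and brown fat, read 5.63, 5.38, 6.39 and 6.11 in healthy mice. It read 8.63, 8.61, 7.71, 5.73 and 9.40 on day 9, 8.26, 7.05, 8.44, 5.97 and 10.09 on day 21, and 5.11, 4.71, 4.80, 5.13 and 9.54 on day 23. On the 10 arrays with skeletal muscle markers or Ucp1 over log2 6 it lay between 7.54 and 10.09, and on the other 24 between 4.71 and 7.05. On the 5 of these arrays with Ucp1 over 6 and no skeletal muscle markers it lay between 8.26 and 9.54, while Cox6a2 lay between 4.31 and 5.49. Cox8a, the form of most tissues, lay between 13.79 and 14.09 on the 10 arrays and between 13.62 and 14.14 on the other 24. The changes of Cox8b on day 9 (2.14, adjusted p = 0.196) and day 21 (2.08, adjusted p = 0.288) did not pass.

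**Figure D4:**
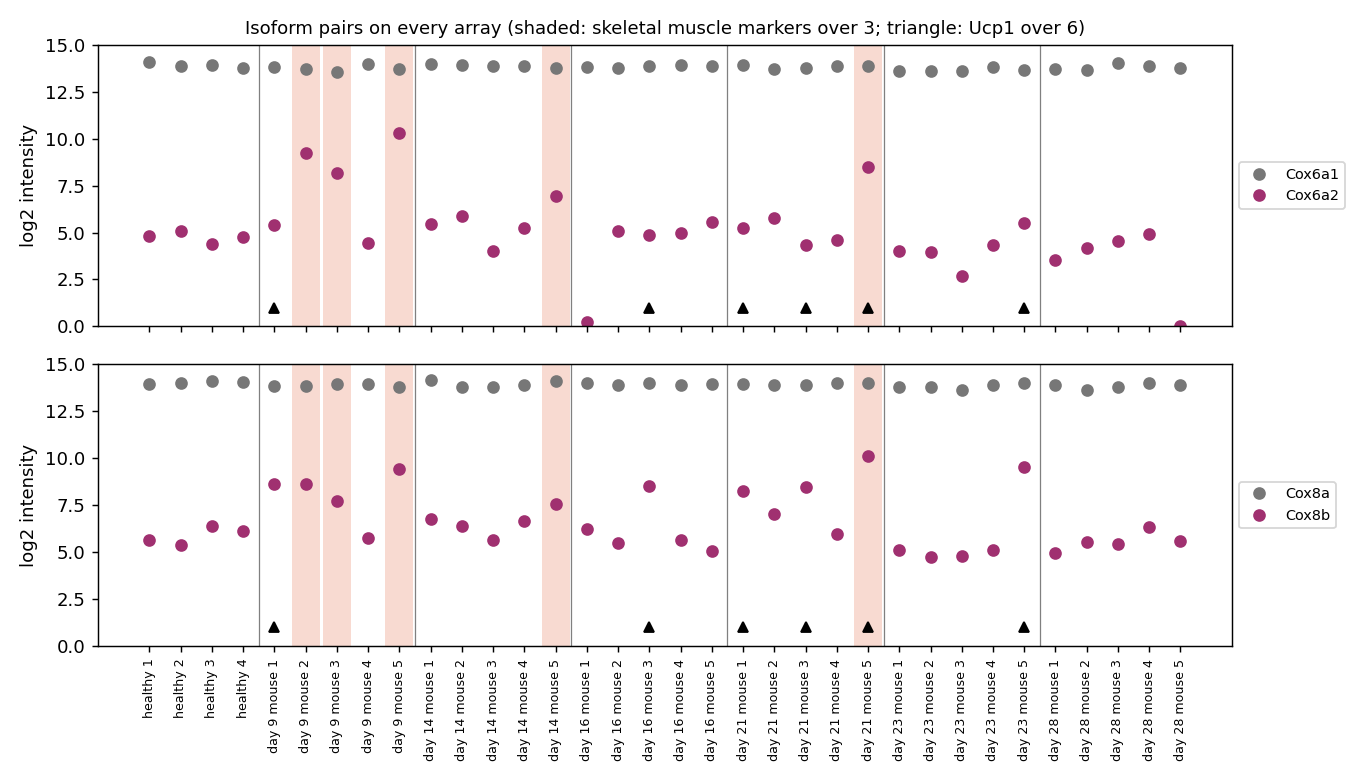
Log2 intensity (y axis) of Cox6a1 and Cox6a2 (upper panel) and of Cox8a and Cox8b (lower panel) on each of the 34 arrays (x axis), with vertical lines between groups. Shaded arrays have skeletal muscle markers more than 3 log2 units above healthy and triangles mark Ucp1 over log2 6. Cox6a2 reaches 6.96 to 10.30 on the shaded arrays and at most 5.89 elsewhere, and Cox8b reaches 7.54 to 10.09 on arrays that are shaded or carry a triangle and at most 7.05 elsewhere.

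Cox7a1, also a form of heart and skeletal muscle, did not follow the same arrays. It lay between 10.71 and 11.56 on the 5 arrays with skeletal muscle markers and between 10.13 and 11.58 on the others. On day 23 it read 10.13, 10.53, 10.62, 11.12 and 10.93 against 10.98, 11.31, 10.96 and 10.96 in healthy mice, a log2 change of -0.39 (adjusted p = 0.258). Cox4i2, the form of lung and of low oxygen, was above background on no array, and Cox7b2 and Cox8c were not tested. The common forms Cox4i1, Cox6b1, Cox7a2 and Cox7b stood at -0.12, -0.07, -0.02 and -0.11 on day 23 and none passed. The 3 genes for the c subunit of complex V, which encode the same mature protein, stood at -0.11 (Atp5g1), -0.28 (Atp5g2) and -0.04 (Atp5g3) on day 23, with adjusted p of 0.632, 0.276 and 0.857. Ndufa4 stood at 0.02 over the days at 2 days after instillation.

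Members also varied together from mouse to mouse. After removal of the group means, the pairwise correlations over the 34 arrays had a median of 0.24 within a complex and 0.20 between complexes over the 75 members above background. Among the 37 members with a mean of log2 12 or more the median was 0.19 and 78.5% of pairs were positive, against 0.01 and 51.5% among 421 other genes of that brightness. The correlations are descriptive, because all pairs share the same arrays and their normalisation.

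Other mitochondrial genes were counted from lists, to be read against the 3.53% of all genes that were lower and the 4.1% that were higher on day 23. On day 23, 2 of 13 genes of the tricarboxylic acid cycle were lower and none higher, namely Idh3b (-0.67, adjusted p = 0.00142) and Idh3a (-0.63, adjusted p = 0.000774), subunits of the NAD-dependent isocitrate dehydrogenase, by limma. The median of the list was -0.173. Of 11 regulators of mitochondrial biogenesis 2 were lower, Ppargc1a (-0.96, adjusted p = 0.00587), a coactivator that drives mitochondrial gene expression, and Tfb2m (-0.43, adjusted p = 0.0264), a factor of mitochondrial transcription. Of 73 mitochondrial ribosomal proteins 6 were lower, with Mrpl15 at -0.90, and 1 was higher, Mrps7 at 0.43, with a median of -0.112. Of 24 assembly factors 3 were lower (Bcs1l, Ecsit and Uqcc1), and of 10 carriers 2 were lower (Vdac3 and Slc25a3, the phosphate carrier that supplies ATP synthase). Pdk3, a kinase that inhibits pyruvate dehydrogenase, was higher (0.73, adjusted p = 0.000879), and Dlat, a subunit of that enzyme, was lower (-0.50, adjusted p = 0.0212). Of 7 mitochondrial antioxidants none was called on day 23.

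Genes of glucose use and of the hypoxia response were counted in the same way. On day 23, Slc2a1, a glucose transporter, was higher (0.58, adjusted p = 0.00773 in limma) among 15 glycolytic genes, and 3 of 13 hypoxia genes were higher (Adm, Egln3 and Ndrg1). Between 2 and 7 days after an instillation, 6.34% of all genes passed in either direction, 3.41% as higher at 2 days and 2.93% as lower. In this comparison 4 of 15 glycolytic genes were higher at 2 days, with Pkm at 0.40 (adjusted p = 0.00289) and Slc2a1 at 0.37 (adjusted p = 0.00245) in limma. Of 13 genes of the hypoxia response 5 were higher, with Egln3 at 0.98 (adjusted p = 1.63e-05) and Adm at 0.82 (adjusted p = 0.018). In this same comparison Idh3b (-0.34, adjusted p = 0.00322) and Idh3a (-0.25, adjusted p = 0.0149) were lower at 2 days, Ppargc1a was lower (-0.43, adjusted p = 0.0274) and none of the 81 respiratory members passed. Whether the lists differ from the members was not tested.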

How the data were processed

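RNA of the distal colon of 34 mice was hybridised to Illumina MouseRef-8 arrays. The authors extracted background-subtracted intensities with Illumina software (the labels name GenomeStudio), quantile-normalised them in GeneSpring, and deposited log2 values per probe, which are analysed here. The deposited table of non-normalised signals was not used because its 68 value columns could not be paired with mice. Array medians were 4.77 to 4.78.

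Symbols came from the platform annotation (23978 of 25697 probes have 1 symbol, 1719 none). Values below 5 (log2 2.322) were set to 5, probes above 5 on at least 4 arrays were kept (21110), and 1 limma model (limma 3.58.1, R 4.3.3) was fitted to all 7 groups with 27 residual degrees of freedom. A change was called at an adjusted p under 0.05 (Benjamini-Hochberg, within a comparison). The brightest probe stands for a gene, and 15 members had other tested probes. Genes named are those called, isoform pairs, the 2 highest and 2 lowest per complex over the days at 2 days after instillation, complex II and up to 2 called genes per list and direction, with exceptions stated. The number of arrays limits the precision. The members and all lists were chosen with earlier results of these data known. The fit was tested on simulated data. Alternatives were another floor, offset, filter, prior, weights, probe summary, a muscle covariate, a replicate block, and leaving out arrays. Leaving out arrays with brown fat markers was added after seeing the data. Replicates were different mice, and no pair of arrays held identical values.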

Additional observations from a re-analysis of the deposited data

Results flagged for a closer look

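Within groups, 18 of 273 sets of 4 or 5 values held 1 value far from the others by Dixon's criterion, and chance alone gives about 1 in 20. Mouse 5 of day 23 accounted for 5 of them and was the highest each time. Its mean over the 75 members was 11.70 (next mouse 11.54), its mean over complex III was 13.14 (next 12.99), Cox8b read 9.54 (next 5.13), Uqcr11 read 13.56 (next 13.29) and Cox7b read 8.82 (next 8.25). Ucp1 was also highest on this array, and its part in these values was not tested.

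Among genes that were called, Ndufaf4 read 9.66 in healthy mouse 1 (next 10.13), which enters its higher value on day 28, and Ndufa5 read 11.85 in day 14 mouse 4 (next 12.11). Cox7a1 read 11.31 in healthy mouse 2 (next 10.98), and Sdhb by its brightest probe read 11.43 in day 28 mouse 5 (next 11.14). Atp5c1 read 13.24 in day 28 mouse 1 (next 13.45) and Ndufa3 read 11.40 in day 28 mouse 2 (next 11.78).

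The other 7 values came from probes near background. Cox4i2 read 3.51 in day 9 mouse 4, 4.12 in day 16 mouse 4 and 4.56 in day 21 mouse 3, Atp5k read 4.57 in day 23 mouse 1, and Uqcrfs1 read 4.99 in day 21 mouse 5. Cox6a2 was at the floor (2.32) in day 16 mouse 1 (next 4.86), and Cox6b2 read 3.63 in day 16 mouse 3 (next 5.18).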

How the results depend on the processing

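The number of members called depended on the settings, while the medians below 0 on day 23 were found in each complex under every setting run. On day 23 the count of 6 became 16 with a floor of 20, 10 with no probe filter, 10 with a filter on the receptor background and 1 when only the groups compared were fitted. At 2 days after instillation the count of 4 became 9 with a floor of 20, 9 with the receptor filter, 7 with a trended and robust prior, 7 with array weights, 7 with skeletal muscle markers as a covariate, 2 with the mean of a gene's probes, 1 when only the groups compared were fitted and 1 without the arrays with skeletal muscle or brown fat markers. The call of day 9 fell to 0 when only the groups compared were fitted, with the covariate, without the arrays with skeletal muscle markers and without those with muscle or brown fat markers. On day 16 the count was 0 when only the groups compared were fitted and without the muscle or brown fat arrays, 3 with array weights and 2 without the skeletal muscle arrays, and on day 28 it was 0 when only the groups compared were fitted. At 7 days it became 1 (Ndufaf7, adjusted p = 0.0481 in limma) when only the groups compared were fitted, and between 2 and 7 days 1 (Atp5o, higher) without the skeletal muscle arrays. The causes were not tested, except that a fit of 2 groups has fewer arrays to estimate the spread. Without the skeletal muscle arrays 0.69% of all probes were called on day 9 and 4.56% on day 16. At 2 days 7.92% were, and between 2 and 7 days 3.49%. Without the muscle or brown fat arrays the shares were 0.649% on day 9, 3.78% on day 16 and 5.16% at 2 days. For the other settings in this paragraph the share over all genes was not counted, so their counts cannot be set against it.

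Without the muscle or brown fat arrays the median of complex III was -0.063 on day 16 and -0.094 on day 21 and that of complex IV was -0.241 on day 23, and with array weights that of complex III on day 16 was -0.068. With the mean of a gene's probes the median of complex II was 0.072 on day 14 and 0.131 on day 21. Without the muscle or brown fat arrays the day 9 changes turned to -0.299 for Cox6a2 and -0.148 for Cox8b, with mouse 4 the only array of day 9 left. In the 250 bases before the start alone, NRF1 letters stood in 17.1% of members, YY1 letters in 1.43% and any of the 4 motifs in 22.9%.

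With each array left out in turn, the count ranged from 0 to 2 on day 9, 0 to 1 on day 16, 2 to 7 on day 23, 0 to 1 on day 28, 1 to 6 at 2 days, 0 to 1 at 7 days, 0 to 1 between 2 and 7 days, 0 to 1 between days 9 and 14, and 0 to 1 for the trend, and stayed at 0 on days 14 and 21, between days 16 and 21, between days 23 and 28 and between cycles. The median of complex III on day 16 ranged from -0.066 to 0.017 and that of complex IV on day 23 from -0.241 to -0.079. Mouse numbers recur in each group, but same-numbered mice are different animals and their deviations correlated at -0.132 to 0.152, with 10 of 34 arrays closest to their own number. With the number as a replicate block 8 members were called on day 23, where 6.6% of all probes were called. Ndufb8, Ndufa12 and Ndufs3 were gained and Atp5pb was lost (log2 change -0.333, limma adjusted p = 0.062). At 2 days 5 members were called, with Ndufs3 gained, where 6.94% of all probes were called. The other counts were the same, and the median of all members on day 23 was -0.193. Signals of 6 tested members were not above background on all arrays, and their changes are the least precise.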
